A study of Ambystoma mexicanum with 7 samples.

Results

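The miRNAs miR-1 and miR-206 were measured in the regenerating limb of the axolotl (Ambystoma mexicanum) on 2 microarray platforms. The probes described are those carrying a vertebrate entry named exactly miR-1, miR-1a, miR-1b or miR-206 once the species prefix was dropped. They numbered 13 of 1974 reporters on the LC Sciences array and 5 of 2021 named probes on the Exiqon array. All 4 names were found, and every one of these probes passed the filter on low values. The mid-bud blastema at 17 days post amputation (dpa) was compared with the non-regenerating stump taken from the same hindlimbs when they were amputated, at day 0. White axolotls numbered 368, 369 and 378 each gave 1 blastema and 1 stump, and aliquots of the same total RNA went to both companies. Stump samples held full-thickness skin, bone, muscle and nerve, so that they are a mixture of mature tissues. In such bulk samples fewer cells of a type and less of an RNA per cell cannot be told apart.

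miRNAs are short RNAs that pair with messenger RNAs, mainly through the seed, which is bases 2 to 8 counted from the 5′ end, and lower the output of those messages. miR-1 is made in skeletal and heart muscle of vertebrates under muscle transcription factors and is known in mouse and zebrafish for promoting muscle differentiation. miR-206 is largely restricted to skeletal muscle and is induced as myoblasts differentiate. The 2 miRNAs are close relatives, and miR-133, a muscle miRNA of another family, is transcribed from the same precursors as miR-1 and miR-206 in mammals.

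The sequences below are the targets of the LC Sciences reporters, shown because they set which members an array can tell apart. The seed is in capitals. The 13 member reporters carried 5 distinct sequences, and reporters of 1 sequence are repeat measurements rather than separate miRNAs.
hsa-miR-1 and dre-miR-1: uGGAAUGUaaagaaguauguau
gga-miR-1a, xtr-miR-1a and mdo-miR-1: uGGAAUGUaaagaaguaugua
gga-miR-1b and xtr-miR-1b: uGGAAUGUuaagaaguaugua
hsa-miR-206, dre-miR-206, gga-miR-206 and xtr-miR-206: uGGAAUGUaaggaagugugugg
mdo-miR-206 and C_mdo-miR-206: uGGAAUGUaaggaagugugug
The 13 reporters shared 1 seed. The miR-1a sequence is the 22-base miR-1 without its last base. Counted from the 5′ end of hsa-miR-1, miR-1b differed by the single substitution A9U, just past the seed, and the 22-base miR-206 by A11G, A17G, A21G and U22G. The seed stood in 14 of the 1974 reporters (0.709%). The remaining one was hsa-miR-613, whose sequence otherwise departs from miR-1. It is printed because it shares the seed alone. Also printed is gga-miR-1c, a near copy that shares most of the sequence but has the substitutions U8G, inside the seed, and A13C, past it.
hsa-miR-613: aGGAAUGUuccuucuuugcc
gga-miR-1c: uGGAAUGGaaagcaguauguau
hsa-miR-613 read 25, 4 and 4 in the blastemas of animals 368, 369 and 378, against 19, 12 and 11 in their stumps. gga-miR-1c read 8, 19 and 5 in blastemas, against 10, 17 and 7 in stumps. These values lie under 32, the level below which LC Sciences signals were treated as not measured, in blastema and stump alike. The axolotl's own mature sequences were not used here.

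Every member probe was lower in the blastema than in the stump in each of the 3 animals on both platforms. On the LC Sciences array 13 of 13 member reporters passed the test as lower in blastema (limma, adjusted p from 7.07e-05 to 0.0467), where 22.4% of the 500 reporters tested did so and 25.8% passed as higher. Their median difference was -3.47 on the log2 scale, against 0.01 over all reporters tested. On the Exiqon array 5 of 5 passed (adjusted p from 0.000564 to 0.00814), where 10.9% of the 2015 probes tested did so and 9.13% passed as higher, with a median difference of -2.83 against 0.00 over all probes. The blastema and stump values did not overlap for any of the 18 probes. Such a gap, with all blastemas under all stumps, was found for 31.8% of LC Sciences reporters and 18.8% of 2009 Exiqon probes with 6 values. From the most negative difference upward, the members ranked from 1 to 18 among the LC Sciences reporters and from 2 to 16 among the Exiqon probes. The 2 lowest adjusted p on the LC Sciences array, and rank 1, belonged to miR-1b. Its 2 reporters entered the test through their stumps alone, with 2 of 3 blastemas set to a floor of 32. The other 11 LC Sciences members had adjusted p from 0.0132 to 0.0467 (limma).

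**Figure D1:**
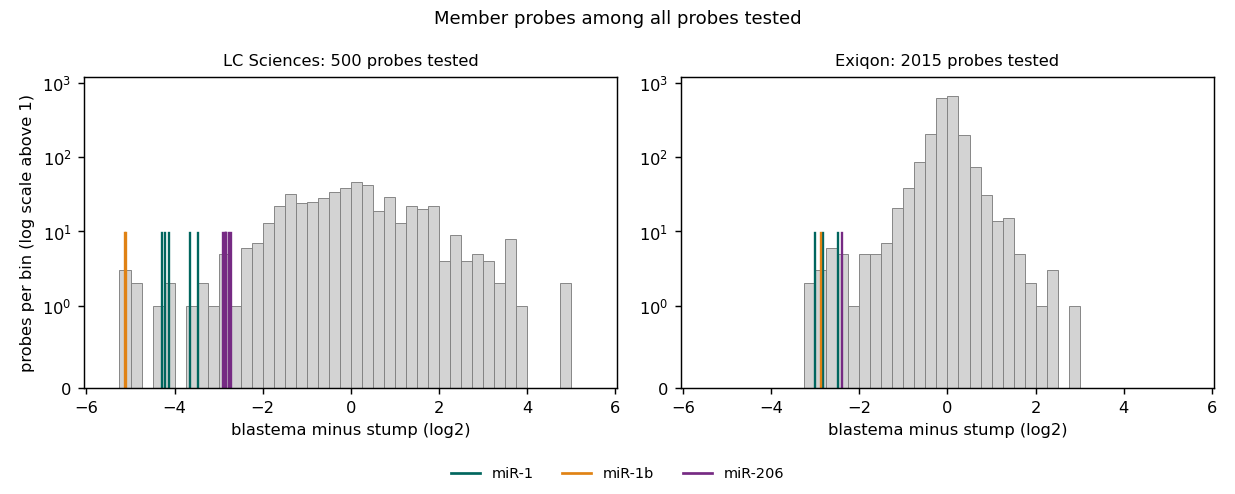
Histogram of the blastema minus stump difference (log2, x axis) over all probes tested on each platform, with the number of probes per bin on the y axis (log scale above 1) and a vertical line for each member probe. The miR-1, miR-1b and miR-206 lines lie between -5.13 and -2.71 on the LC Sciences array and between -3.01 and -2.39 on the Exiqon array, in the lower tail of both.

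The blastema of animal 368 stood apart from those of animals 369 and 378 on both platforms. Its miR-1 and miR-206 signals were far under those of the other 2 blastemas. miR-1b was an exception on the LC Sciences array, where the blastemas of animals 368 and 369 were both under 32. The LC Sciences stump signals of miR-1 and miR-206 were close to each other. The Exiqon Hy3 signals were lower in the stump of animal 369, at 12639 against 22049 and 20255 for mmu-miR-1. The Exiqon log2 ratios of the members had SDs of 0.05 to 0.29 over stumps, against 0.77 to 1.61 over blastemas. On the LC Sciences array each animal's blastema and stump were hybridised together, and the blastema was in Cy3 for animal 368 but in Cy5 for animals 369 and 378. Dye and animal therefore cannot be told apart there. On the Exiqon array every sample was in Hy3 against a common pool in Hy5, and the same blastema was again the lowest. The 2 Exiqon arrays of animal 368 had 1584 poor spots for blastema and 1209 for stump, against 186 to 214 on the other arrays, but only 1 of the 20 member spots on its blastema array was flagged and none on its stump array. Without the blastema of animal 368, 13 of 13 and 5 of 5 member probes still passed, with median differences of -1.91 on the LC Sciences array and -2.03 on the Exiqon array. Of all probes tested, 24.8% on the LC Sciences array and 10.1% on the Exiqon array passed as lower in this setting.

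Among the member reporters that stayed above 32 in every sample, those of miR-1 had the largest differences. hsa-miR-1 read 142, 4162 and 3133 in the blastemas of animals 368, 369 and 378, against 13057, 13810 and 13876 in their stumps (normalized LC Sciences signal). dre-miR-1, with the same target sequence, read 120, 3635 and 2766 in blastemas, against 13406, 13085 and 13878 in stumps. The 3 stumps were within a narrow band, and the 3 blastemas all lay under it, that of animal 368 by far the lowest. The difference was -3.47 ± 1.19 (SE, log2) for hsa-miR-1, 11.1-fold lower in blastema (adjusted p = 0.0467), and -3.66 ± 1.20 for dre-miR-1 (adjusted p = 0.0408).

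The 3 reporters of the sequence 1 base shorter had differences of -4.29 to -4.13, and whether these differ from the 22-base reporters was not tested. gga-miR-1a read 66, 1944 and 1824 in blastemas, against 11098, 10699 and 12370 in stumps, 18.4-fold lower (adjusted p = 0.0274). xtr-miR-1a read 63, 2142 and 1554 in blastemas, against 10087, 12539 and 12367 in stumps, 19.5-fold lower (adjusted p = 0.0263). mdo-miR-1 read 107, 1705 and 1409 in blastemas, against 10192, 11229 and 11988 in stumps, 17.5-fold lower (adjusted p = 0.0132). The order of samples was alike in all 5 reporters at the low end, with animal 368 under animal 378 and animal 378 under animal 369. Within animals, these 5 reporters were 92.0- to 168-fold lower in the blastema of animal 368, 3.32- to 6.59-fold lower in that of animal 369 and 4.43- to 8.51-fold lower in that of animal 378. Before normalization the 5 gave 329 to 398 in the blastema of animal 368, where empty spots gave 254 to 313. The folds of this animal are thus limited by the background.

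The miR-1b reporters, 1 base away from miR-1, came down to the floor. gga-miR-1b read 9, 24 and 59 in the blastemas of animals 368, 369 and 378, against 1262, 1071 and 1806 in stumps. xtr-miR-1b read 11, 29 and 40 in blastemas, against 1024, 1085 and 1568 in stumps. For both, 2 of 3 blastemas were under 32 and only that of animal 378 was above it. With signals under 32 set to 32, gga-miR-1b was at least 34.3-fold lower (adjusted p = 0.000187) and xtr-miR-1b at least 34.9-fold lower in blastema (adjusted p = 7.07e-05). Both entered the test through their stumps alone. Setting low values to 32 narrows their blastema spread, with SDs of 0.51 and 0.19, against 1.71 to 2.81 for the other members. These p-values thus depend on the floor. With the floor at 8, under all their readings, limma gave adjusted p of 0.000704 and 0.000384. In animal 378, where both tissues were measured, the falls were 30.6- and 39.2-fold. For the same animal the miR-1 reporters were 4.43- to 8.51-fold lower, and the difference between miR-1 and miR-1b was not tested.

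The miR-206 reporters were lower in blastema as well, with differences of -2.91 to -2.71. hsa-miR-206 read 240, 1706 and 2016 in blastemas, against 7573, 6153 and 6730 in stumps, 7.24-fold lower (difference -2.86 ± 0.77, adjusted p = 0.0208). dre-miR-206 read 213, 2457 and 2785 in blastemas, against 8585, 7101 and 7490 in stumps, 6.79-fold lower (adjusted p = 0.0438). gga-miR-206 read 212, 1816 and 2600 in blastemas, against 7517, 6389 and 7486 in stumps, 7.11-fold lower (adjusted p = 0.0326). In each of these the blastema of animal 368 was the lowest sample, as for miR-1, and the stumps were close together. xtr-miR-206 read 193, 1596 and 2020 in blastemas, against 6390, 6172 and 6705 in stumps, 7.52-fold lower (adjusted p = 0.0254). mdo-miR-206 read 214, 1642 and 2993 in blastemas, against 7598, 5024 and 7695 in stumps, 6.54-fold lower (adjusted p = 0.0422). C_mdo-miR-206 read 199, 1645 and 2457 in blastemas, against 7093, 5529 and 7441 in stumps, 7.13-fold lower (adjusted p = 0.0326). Over the 6 reporters the fall was 31.6- to 40.3-fold in animal 368, 2.89- to 3.87-fold in animal 369 and 2.57- to 3.34-fold in animal 378. Before normalization the 6 gave 402 to 470 in the blastema of animal 368, where empty spots gave 254 to 313.

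**Figure D2:**
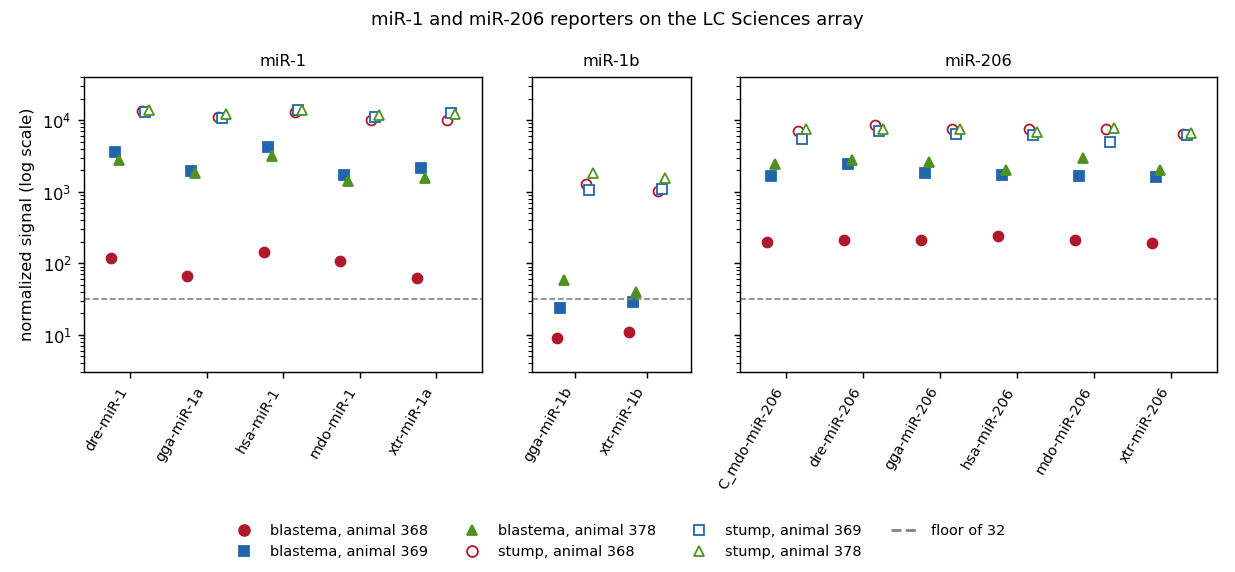
Normalized LC Sciences signal (y axis, log scale) of each member reporter (x axis), with filled symbols for blastemas, open symbols for stumps, 1 symbol shape per animal and a dashed line at the floor of 32. The stumps sit close together, the blastema of animal 368 lies lowest for miR-1 and miR-206, and the miR-1b blastemas lie between 9 and 59, those of animals 368 and 369 under the floor.

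The calls rested on the choice of animals, of reporters tested and of the test. Without animal 369, 2 of 13 LC Sciences members passed, both of them miR-1b. Without animal 378, 3 of 13 passed, both miR-1b reporters and hsa-miR-206 (limma, adjusted p = 0.0497). All 13 passed without animal 368. Over all 500 reporters tested, 8.60%, 16.4% and 19.0% passed as lower in these fits, in the same order. With all 1974 reporters in the fit in place of the 500 that reached 32 in a whole group, 2 of 13 passed, both of them miR-1b. The highest adjusted p of a member was then 0.392, and 1.82% of all reporters passed as lower. The methods' t-test, with Benjamini-Hochberg adjustment, passed 2 of 13 members on the LC Sciences array, again both miR-1b, and 1 of 5 on the Exiqon array, rno-miR-1. The share of all probes passing as lower after this adjustment was not counted. At the t-test's own unadjusted limits 2 of 13 and 0 of 5 members passed, where 14.4% of LC Sciences reporters and 1.79% of Exiqon probes were lower. In the fit of all reporters and in the t-test, the miR-1b blastemas were mostly set to 32, which narrows their spread. Without animal 378 both remaining miR-1b blastemas were set to 32, and without animal 369 that of animal 368 was. The direction of the members was the same under all of these choices, which the lack of overlap between blastemas and stumps fixed in advance.

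Differences of the members were also taken within each dye. In Cy3, where the blastema of animal 368 was set against the stumps of animals 369 and 378, the differences were -7.63 to -6.61 for miR-1, -5.44 to -5.35 for miR-1b and -5.10 to -4.74 for miR-206. In Cy5, where the blastemas of animals 369 and 378 were set against the stump of animal 368, they were -2.72 to -1.85 for miR-1, -4.86 to -4.84 for miR-1b and -2.03 to -1.71 for miR-206. All 13 reporters pointed the same way in both dyes, as they had to, because all blastemas lay under all stumps. The direction within a dye is therefore no separate check on dye. On the array of animal 368, whose spots were read before normalization, hsa-miR-1 gave 369 and 398 in the blastema channel, against 29106 and 33365 in the stump channel. The 4 empty spots of that array gave 254 to 313 in the blastema channel, against 42 to 49 in the stump channel. The hsa-miR-1 signal of this blastema was thus close to empty spots, and that of its stump was far above them.

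On the Exiqon array the same direction was read against a reference that hardly moved. The probe listed as hsa-miR-1 (ID 10916) gave Hy3 intensities of 162, 761 and 749 in the blastemas of animals 368, 369 and 378, against 6226, 3869 and 5409 in their stumps. Its Hy5 reference gave 5251, 5208 and 5089 on the blastema arrays, against 5133, 5041 and 4305 on the stump arrays. The log2 ratio of Hy3 over Hy5 was -4.21, -1.75 and -1.92 in blastemas, against 0.24, 0.14 and 0.21 in stumps. The difference was -2.83 ± 0.53 (SE), 7.09-fold lower in blastema (adjusted p = 0.00390).

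A second miR-1 probe, mmu-miR-1 (ID 30773), gave Hy3 intensities of 293, 1916 and 2202 in blastemas, against 22049, 12639 and 20255 in stumps. It was 8.04-fold lower in blastema (adjusted p = 0.00657). The rat probe rno-miR-1 (ID 14294) gave 116, 221 and 293 in blastemas, against 1401, 709 and 1140 in stumps, 5.61-fold lower (adjusted p = 0.000564). Its value in the blastema of animal 368 equalled the brightest negative control of that array, also 116, so that the fall in this animal is limited by the background.

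The miR-1b probe (xtr-miR-1b and gga-miR-1b, ID 30772) gave 232, 1390 and 1590 in blastemas, against 13430, 7714 and 12611 in stumps, 7.29-fold lower (adjusted p = 0.00814). It followed the miR-1 probes of this array in all 3 animals, and both tissues were above the negative controls. The miR-206 probe (hsa-miR-206, ID 11007) gave 156, 340 and 447 in blastemas, against 2499, 1287 and 2226 in stumps, 5.25-fold lower (difference -2.39 ± 0.34, adjusted p = 0.000865). Over the 5 probes the differences were -4.91 to -3.50 in animal 368, -2.02 to -1.74 in animal 369 and -2.18 to -1.94 in animal 378. Without animal 378, 2 of 5 probes passed, and all 5 passed without either of the other animals. Over all probes tested, 5.01% passed as lower without animal 378, 9.88% without animal 368 and 7.59% without animal 369.

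**Figure D3:**
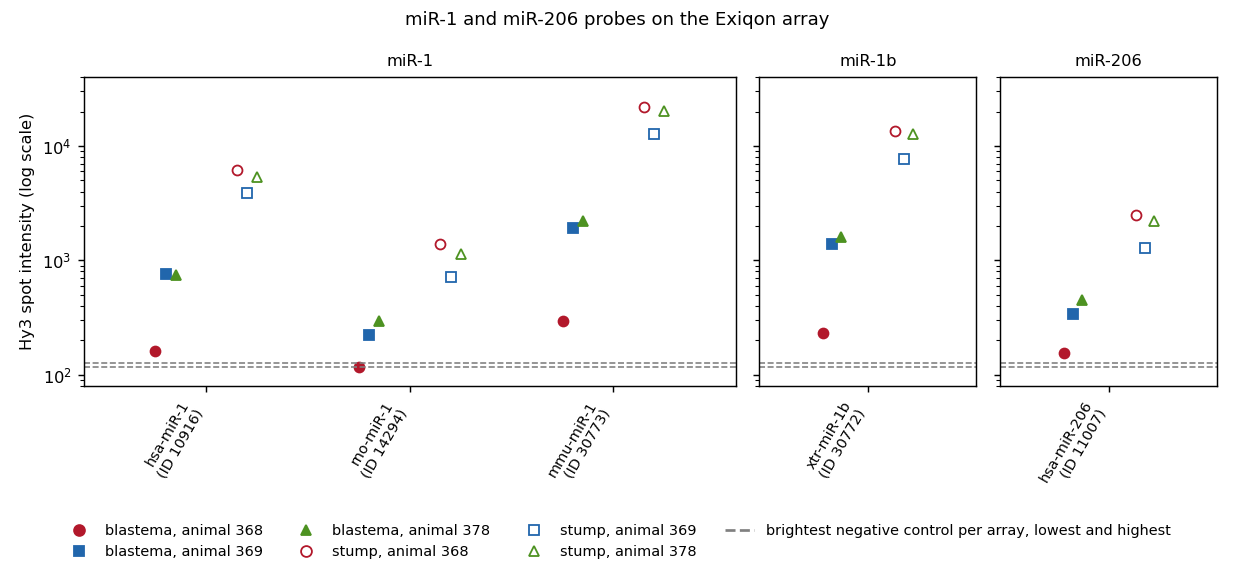
Hy3 spot intensity (y axis, log scale) of each member probe (x axis) on the Exiqon array, with filled symbols for blastemas, open symbols for stumps and dashed lines at 116 and 128, the lowest and highest per-array maximum of the negative controls. The blastema of animal 368 lies lowest for all 5 probes, between 116 and 293, and the stumps lie between 709 and 22049.

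Probes for near copies of miR-1 were read in the same way. Both probes whose miR-1 entries were from invertebrates alone and led by dme-miR-1, the fly miRNA, behaved like the members. One (ID 13477) gave 146, 596 and 688 in blastemas, against 5516, 3139 and 4170 in stumps, 7.77-fold lower (adjusted p = 0.00302), and the other (ID 30166) gave 458, 2087 and 2602 in blastemas, against 22809, 13164 and 21074 in stumps, 6.38-fold lower (adjusted p = 0.00377). The planarian probes sme-miR-1a, sme-miR-1b and sme-miR-1c stayed between 87 and 143 in all samples and did not pass (adjusted p from 0.203 to 0.505). The passenger strand rno-miR-1* gave 119, 121 and 125 in blastemas, against 131, 126 and 132 in stumps, and did not pass either (difference -0.21, adjusted p = 0.348). Its signals lay near the negative controls, above the brightest of them on 5 arrays. Whether a change at this level could be detected was not tested. hsa-miR-613, with the same seed, gave 97, 98 and 105 in blastemas, against 97, 103 and 107 in stumps, under the brightest negative control on every array.

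Members and the other muscle miRNAs were then compared within each sample, which cancels the scaling of a sample. With 3 samples a group, an exact permutation test cannot give a two-sided p under 0.100, so none of these 6 comparisons could reach the threshold (p adjusted over the 6 from 0.150 to 0.300). The first asked whether miR-1 and miR-206 fell alike. On the LC Sciences array the mean log2 signal of the 7 miR-1 and miR-1b reporters minus that of the 6 miR-206 reporters was -1.61, -1.29 and -1.81 in the blastemas of animals 368, 369 and 378, against -0.33, 0.02 and -0.01 in their stumps. The groups did not overlap (difference -1.46, exact permutation p = 0.100), and without the miR-1b reporters the difference was -1.13. On the Exiqon array the same quantity was -1.17, -0.13 and -0.38 in blastemas, against -0.27, 0.01 and -0.21 in stumps, where the groups overlapped (difference -0.40, exact permutation p = 0.300).

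The mean miR-133 difference on the LC Sciences array was smaller than the member mean in each animal. Of 20 miR-133 reporters 2 passed as lower and none as higher, both of the 2 being miR-133c (dre-miR-133c and C_dre-miR-133c), and the median difference was -1.49. In animals 369 and 378 these 2 reporters lay apart from the mean, about the size of the miR-206 differences there. The values were -1.55 and -1.87 for dre-miR-133c and -1.58 and -1.74 for C_dre-miR-133c. In the blastemas of animals 368, 369 and 378 dre-miR-133c read 30, 54 and 48, and C_dre-miR-133c read 29, 66 and 66. Both readings of animal 368 were under the floor and were set to it. The blastema SDs of these 2 reporters were 0.40 and 0.60, against 1.51 to 2.05 for the other miR-133 reporters. Whether the 2 calls depend on the low signal was not tested. hsa-miR-133a read 267, 2049 and 1894 in blastemas, against 2738, 2566 and 2443 in stumps (difference -1.35, adjusted p = 0.174). The mean miR-133 difference was -3.57 in animal 368, -0.56 in animal 369 and -0.60 in animal 378. The member mean minus the miR-133 mean was -0.18, 0.28 and 0.46 in blastemas, against 2.07, 2.18 and 2.40 in stumps (difference -2.03, exact permutation p = 0.100), with no overlap. The member mean includes the 2 miR-1b reporters, whose floored differences were -5.15, -5.07 and -5.11 in animals 368, 369 and 378. The miR-1 mean difference was -6.92, -2.26 and -2.66 in these animals, and that of miR-206 was -5.14, -1.75 and -1.56. The comparison with miR-133 was not run without miR-1b.

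On the Exiqon array the gap between the families was small. All 6 miR-133 probes passed as lower (median difference -2.52). The probe hsa-miR-133a (ID 10938) gave 160, 663 and 786 in blastemas, against 4331, 2647 and 3968 in stumps, 5.76-fold lower (adjusted p = 0.00768). The member mean minus the miR-133 mean was -0.52, -0.35 and -0.29 in blastemas, against 0.14, -0.11 and -0.01 in stumps (difference -0.39, exact permutation p = 0.100). With the brightest probe of each name alone it was -0.14.

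miR-499 and miR-208 are encoded within myosin heavy chain genes and mark slow and cardiac muscle in mammals. On the LC Sciences array 3 miR-499 reporters were tested and all 3 passed as lower. hsa-miR-499-5p read 37, 108 and 88 in blastemas, against 2317, 2150 and 2920 in stumps, 34.6-fold lower (adjusted p = 0.000267). Within animals it was 62.6-, 19.9- and 33.2-fold lower in the blastemas of animals 368, 369 and 378. xtr-miR-499 read 14 in the blastema of animal 368, under the floor, and was set to 32 there. gga-miR-499 and the 4 miR-208 reporters did not reach the level needed for the test, and hsa-miR-208b, the brightest of these in stumps, read 20, 17 and 7 in blastemas, against 41, 30 and 34 in stumps. The member mean minus the mean of the 3 tested was 1.60, 4.03 and 4.21 in blastemas, against 1.96, 2.19 and 1.60 in stumps, with overlap through animal 368 (difference 1.36, exact permutation p = 0.300). Floored signals of miR-1b and xtr-miR-499 enter these means.

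The Exiqon list differed in its make-up, with 2 miR-499 and 3 miR-208 probes, so that its value is not set against that of the LC Sciences array. The member mean minus the mean of these 5 probes was -2.31, -0.57 and -0.46 in blastemas, against 0.24, 0.16 and 0.25 in stumps (difference -1.33, exact permutation p = 0.100). Against the 2 miR-499 probes alone, an alternative chosen after seeing the data, the difference was -0.47 (exact permutation p = 0.700). Both of these miR-499 probes passed as lower, and hsa-miR-499-5p (ID 14313) was 5.64-fold lower (adjusted p = 0.000238). Of 3 miR-208 probes 1 passed, mdo-miR-208, which gave 90, 97 and 98 in blastemas, at the level of the negative controls, against 271, 155 and 165 in stumps. The miRNA miR-486, which is also abundant in muscle and in red blood cells of mammals, was near the negative controls on both Exiqon probes (neither passed, adjusted p = 0.743 and 0.816) and under 32 in all 6 samples of hsa-miR-486-5p on the LC Sciences array.

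**Figure D4:**
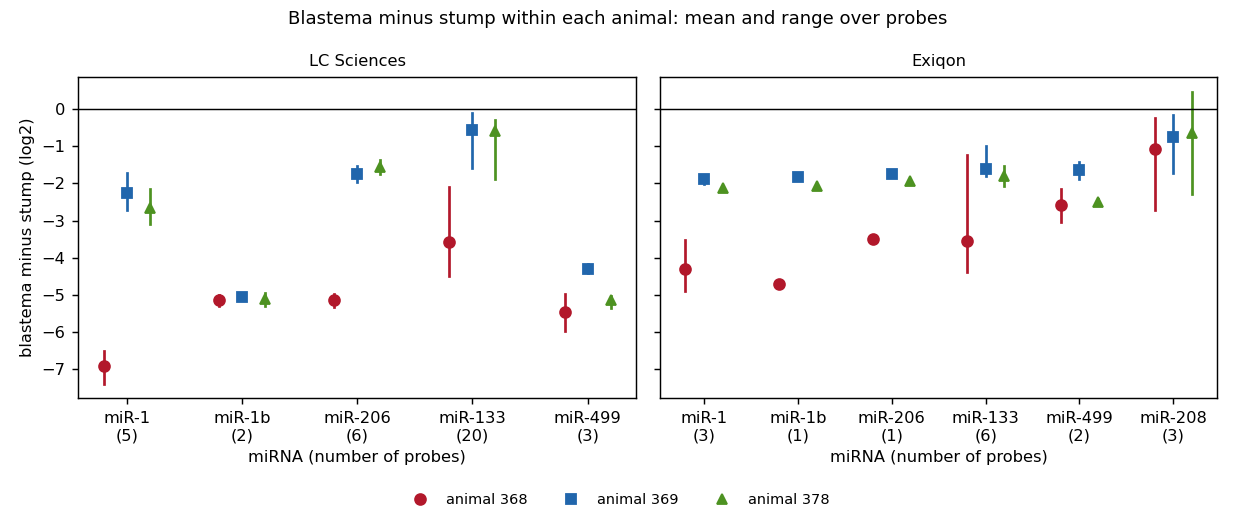
Blastema minus stump difference (log2, y axis) within each animal for the members and the other muscle miRNAs tested (x axis, with the number of probes), as the mean (symbol) and range (line) over probes on each platform, with LC Sciences signals under 32 set to 32. Animal 368 lies lowest for miR-1 and miR-206 on both platforms, at -6.92 and -5.14 on the LC Sciences array. The miR-1b blastemas were mostly under the LC Sciences floor of 32. Those of miR-499 were not far above it, save xtr-miR-499 in animal 368, which was under it at 14.

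The search for probes nearest in pattern left out the members and, on the Exiqon array, the invertebrate miR-1 probes, including those led by dme-miR-1. Each probe was first centred on its stump mean. The searched probes whose 6 values lay nearest to the member mean were all of miR-133 on the Exiqon array. They were mml-miR-133a, 2 probes of hsa-miR-133a, hsa-miR-133b and xtr-miR-133a, at a root mean square distance of 0.172 to 0.295 over the 6 samples. On the LC Sciences array the 5 nearest were less close, at 1.22 to 1.26, and were xtr-miR-133b, xtr-miR-499, hsa-miR-499-5p, xla-miR-133a and xtr-miR-10b. The last of these, of a family encoded in the Hox clusters, read 48, 61 and 93 in blastemas, against 369, 255 and 413 in stumps.

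Markers of other tissues of the limb moved as well, and their part in the member values was not tested. The cartilage marker miR-455 passed as lower in 5 of 5 LC Sciences reporters and 4 of 4 Exiqon probes tested, miR-140 in 0 of 1 (difference -1.55) and 3 of 3, and the endothelial miR-126 in 4 of 4 and 3 of 3. Of the epidermal markers, miR-205 passed as higher in 9 of 9 LC Sciences reporters and in none of 3 Exiqon probes, whereas miR-203 passed in none of 6 LC Sciences reporters (differences -0.51 to 0.28) and as lower in 3 of 3 Exiqon probes. The mean log2 signal of both together on the LC Sciences array was 11.49 to 11.66 in blastemas, against 10.24 to 10.47 in stumps. The Exiqon array went the other way, with a mean log2 ratio of -0.40 to -0.20 in blastemas, against 0.04 to 0.16 in stumps. Of 23 nerve reporters on the LC Sciences array (miR-9, miR-124, miR-338 and miR-219) none reached the level needed for the test, and 2 of 12 Exiqon nerve probes passed as lower, 1 of miR-124 and 1 of miR-338. The smooth muscle marker miR-145 passed as higher in 5 of 5 LC Sciences reporters and miR-143 in 0 of 4 (differences 0.09 to 0.16). The red blood cell marker miR-451 passed as higher in 5 of 6, and no miR-144 reporter was tested. On the Exiqon array the 2 probes of miR-143 and miR-145 and the 8 of miR-451 and miR-144 did not pass (limma, median differences -0.34 and -0.11, with only miR-143 at an unadjusted p under 0.05). White blood cell markers (miR-142, miR-223, miR-155 and miR-150) passed as higher in 6 of 14 LC Sciences reporters, 5 of miR-223 and 1 of miR-155, and as lower in 2, both miR-150. Of 11 Exiqon probes 2 passed as higher, 1 of miR-223 and 1 of miR-155, and 4 as lower, all miR-142. The LC Sciences spike-in controls were 6.33-fold higher in blastemas than in stumps in the normalized signals. Scaling each sample to them moved the median of all reporters to -2.47 and gave 395 lower and 2 higher calls in place of 112 lower and 129 higher. The 13 members all passed under that scaling, with a median of -6.13, which is -3.66 relative to all reporters.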

How the data were processed

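Total RNA of 3 blastemas and 3 stumps was hybridised by both companies. ImaGene scanner files from Exiqon, as deposited, hold the raw intensity of each spot in each channel, and the Exiqon log2 ratios deposited by the authors had normexp and loess applied. The deposited LC Sciences signals are linear intensities, background-subtracted and normalized by the company. The methods name Lowess and 2 array headers a global normalization, so that the method is not settled here. The number of arrays limits the precision.

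Exiqon log2 ratios were computed in limma 3.58.1 (R 4.3.3) with normexp (offset 10) and loess without control spots. Flagged spots were dropped and the 4 spots of a probe averaged. A probe was kept where 50% of its spots exceeded the local background by 2 SD on all 3 arrays of a group. The median absolute difference from the 2567 deposited values was 0.00952. LC Sciences signals under 32 were set to 32, and reporters reaching 32 in all 3 samples of a group were kept. Fold changes of floored signals are lower bounds.

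Groups were compared with lmFit and eBayes, without pairing, with Benjamini-Hochberg adjustment over all probes kept and a threshold of 0.05. Replicate numbers 1, 2 and 3 are animals 368, 369 and 378 in both groups and thus pair the samples. The deviations of blastema and stump of 1 animal correlated at -0.04 to -0.01 on Exiqon and -0.05 to 0.17 on LC Sciences. Each animal gave 1 sample per tissue. Lists were compared by exact permutation, two-sided. The fits were checked on simulated data with the same spread in both groups and no floor. The members differ from that setting, so the check does not cover their calls. Alternatives covered background, normalization, channel, filters, floor, dye, animal as a block and replicates left out, and the methods' t-test was run unpaired, as its pairing is not given in the sources used here.

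All member probes were named, together with the other muscle miRNAs miR-133, miR-133a to miR-133c, miR-499, miR-208 and miR-486, near copies, and the 5 probes nearest in pattern. The members and lists were chosen with earlier results of these data known, and hsa-miR-613 was added for its seed after its values were seen. The authors' columns of fold changes and p-values were not used.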

Additional observations from a re-analysis of the deposited data

How the results depend on the processing

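Every member probe stayed lower in blastema under every alternative run. For animals left out, the block, other filters and the t-test this direction was fixed in advance, because blastema and stump values did not overlap. With animal as a replicate block 13 LC Sciences and 5 Exiqon members passed, and the block changed no member's call. Of all probes tested, 21.6% and 9.28% passed as lower with the block. The methods' t-test at its own limits (p of 0.01 or less on LC Sciences, 0.001 or less on Exiqon) gave 2 of 13 and 0 of 5 members, and 2 and 1 after Benjamini-Hochberg. At those limits 14.4% of all LC Sciences reporters tested and 1.79% of all Exiqon probes were lower. At an unadjusted p under 0.05 the t-test gave 4 and 5 members. The shares of all probes at that t-test limit, and after its Benjamini-Hochberg adjustment, were not counted, so these counts have no background beside them. With limma 13 and 5 members passed after adjustment, where 22.4% and 10.9% of all probes tested passed as lower. Leaving out 1 animal in turn, or the blastema of animal 368 alone (chosen after seeing the data), gave 2 to 13 LC Sciences members and 2 to 5 Exiqon members, with median differences of -4.33 to -1.91 and -3.29 to -1.97. The shares of all probes that passed as lower were 8.60% to 24.8% and 5.01% to 10.1%. The low member counts came without animal 369 (2) and without animal 378 (3) on LC Sciences and without animal 378 (2) on Exiqon. The LC Sciences members that still passed there were both miR-1b reporters and, without animal 378, also hsa-miR-206. Fitting all 1974 LC Sciences reporters left 2 members past the threshold, where 1.82% of all reporters passed as lower. With the floor at 64, 12 of 13 LC Sciences members passed, where 23.7% of the 459 reporters tested passed as lower. The member that did not pass was hsa-miR-1 (limma, adjusted p = 0.0508). Spike-in scaling moved the LC Sciences median to -6.13.

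Differences between lists changed as follows. Without the miR-1b reporters (chosen after seeing the data), miR-1 minus miR-206 was -1.13 in place of -1.46 on LC Sciences. With the brightest probe of each name, members minus miR-133 was -2.48 in place of -2.03 on LC Sciences and -0.14 in place of -0.39 on Exiqon. Against miR-499 alone (chosen after seeing the data), the Exiqon members gave -0.47 in place of -1.33. With 1 animal left out, miR-1 minus miR-206 ranged from -1.56 to -1.30 on LC Sciences and from -0.54 to -0.16 on Exiqon, members minus miR-133 from -2.09 to -1.92 and from -0.47 to -0.26, and members minus miR-499 and miR-208 from 0.74 to 2.22 and from -1.64 to -0.72. The cause of these shifts was not tested. On Exiqon, median centring and loess on spike-in controls gave 264 lower with 55 higher and 260 lower with 34 higher probes, against 220 lower with 184 higher in the values reported, and member medians of -3.76 and -4.17, with all 5 members past the threshold. Signal over background limits the blastema of animal 368 on both platforms and the miR-1b reporters on LC Sciences.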
